A study of Mus musculus with 2 samples.

Results

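Solute carriers are membrane proteins that move small molecules across the plasma membrane or the membranes of organelles, and their genes are named Slc with a family number and a member number. The genes described here are those whose symbol has the form Slc, number, a, number, and that had at least 1 probe set with a log2 signal of 7.18 or more on at least 1 of the 2 arrays. The Slc25a mitochondrial carriers and Slc4a1, Slc11a2, Slc40a1, Slc18a2, Slc2a1, Slc2a3 and Slc16a3 were set aside by the same rule. This left 146 genes with 210 probe sets, out of 258 carrier genes of this symbol form on the arrays and out of 11389 genes that reached the same signal. The other 112 carrier genes lay below it on both arrays.

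The RNA came from washed platelets of C57BL/6 mice. In the Smad4 -/- mice, a Cre recombinase under the promoter of platelet factor 4 (PF4-Cre) deletes the loxP-flanked Smad4 gene in megakaryocytes and the platelets made from them, and Smad4 f/f mice, which carry the flanked gene, are the control. The sources used here do not say whether the Smad4 f/f mice carry the Cre transgene, how old the mice were, or whether their RNA was pooled. The design text gives 6 mice for each genotype but each has 1 array. No test was therefore possible, no value has an error, and what is compared throughout is 1 array with 1 other. The array type is an Affymetrix whole-genome mouse array, on which a probe set is a group of short probes against one transcript.

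Carriers work as uniporters, exchangers, or symporters that use the gradient of sodium or protons to pull a second molecule along. In platelets they load serotonin, set calcium, sodium and pH, and bring in amino acids, sugars, metals and choline. Platelets have no nucleus and carry mRNA made in the megakaryocyte. Smad4 joins the receptor-activated SMAD proteins of TGF-beta and BMP signalling in complexes that act on transcription.

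Smad4 itself did not differ by 2-fold on these arrays. Its 3 probe sets read 894, 548 and 288 on the Smad4 -/- array and 949, 600.1 and 313 on the Smad4 f/f array, and where they lie relative to the deleted part of the gene was not analysed here. Of 14 platelet markers, 12 were measured, all 12 on both arrays and all within 2-fold, with log2 ratios from -0.38 to 0.43. Markers of other cells stood beside the carriers in the same RNA. Of 17 red cell markers, 11 were measured, of which Fech, Bpgm, Alas2 and Car2 passed 2-fold, all 4 higher in Smad4 -/-. Of the 11, 8 had a ratio above 0 and 3 below, which were Tfrc, Rhd and Klf1 at log2 ratios of -0.61, -0.49 and -0.31. The summed signal of the list was 29759.8 in Smad4 -/- and 12685.5 in Smad4 f/f. Fech gave 13904 of it in Smad4 -/- and 4551 in Smad4 f/f, and Bpgm 7635 in Smad4 -/- and 2881 in Smad4 f/f. The summed signals of T cell markers were 13334 in Smad4 -/- and 5291 in Smad4 f/f, of which Cd28 alone gave 12825 in Smad4 -/- and 4685 in Smad4 f/f, while Cd3d was lower in Smad4 -/- with a log2 ratio of -0.98. The summed signals of neutrophil markers were 7482 in Smad4 -/- and 5774 in Smad4 f/f. Those of monocyte markers were 132326 in Smad4 -/- and 140523 in Smad4 f/f, of which Lyz2 alone gave 131259 and 139723. Of the 5 measured monocyte markers, 2 had a ratio above 0 and 3 below. Csf1r was 3.11-fold higher in Smad4 -/-, and Mpeg1 at least 1.93-fold lower. Of the 5 measured B cell markers, 3 had a ratio above 0 and 2 below, and Jchain was at least 3.73-fold higher. All 3 measured endothelial markers were within 2-fold. Control probes along Gapdh gave a 3'-to-5' ratio, which grows as RNA degrades, of 2.61 in Smad4 -/- and 1.86 in Smad4 f/f, and those along beta-actin 1.27 in Smad4 -/- and 1.16 in Smad4 f/f. The part of these differences in the carrier values was not tested. In bulk RNA, fewer cells of a type and less RNA per cell cannot be told apart.

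Across the 146 carrier genes, the differences went both ways in like numbers. Before each ratio, signals were raised to a floor of 145 (log2 7.18), the 60th percentile of the array on which it was higher, so that noise between weak signals does not appear as a fold. In Smad4 -/-, 7 carriers were higher by 2-fold or more (4.79%), where 3.34% of all 11389 measured genes were. Another 6 were at least 2-fold lower (4.11%), where 3.59% of all measured genes were. That makes 13 carriers past 2-fold either way, where 6.93% of all measured genes were, and 133 carriers within it. Within 2-fold is meant of floored signals throughout, and a gene below the floor on 1 array may differ by more. These shares lie near those of all genes. Over all measured genes 380 were higher and 409 lower, or 481 and 326 when each array was centred on its median.

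The median log2 ratio, Smad4 -/- over Smad4 f/f, was 0.01 for the carriers and -0.02 for all measured genes. The lowest carrier ratio was -1.46 and the highest 1.22, on floored signals. The rule that chose the genes used these same signals. In particular, 25 genes reached the floor on the Smad4 -/- array only and 33 on the Smad4 f/f array only, and for them the rule itself fixes the direction and the fold is a lower bound. The 88 genes that reached it on both arrays had 48 ratios above 0 and 40 below, with 4 genes at least 2-fold higher and 2 lower.

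**Figure D1:**
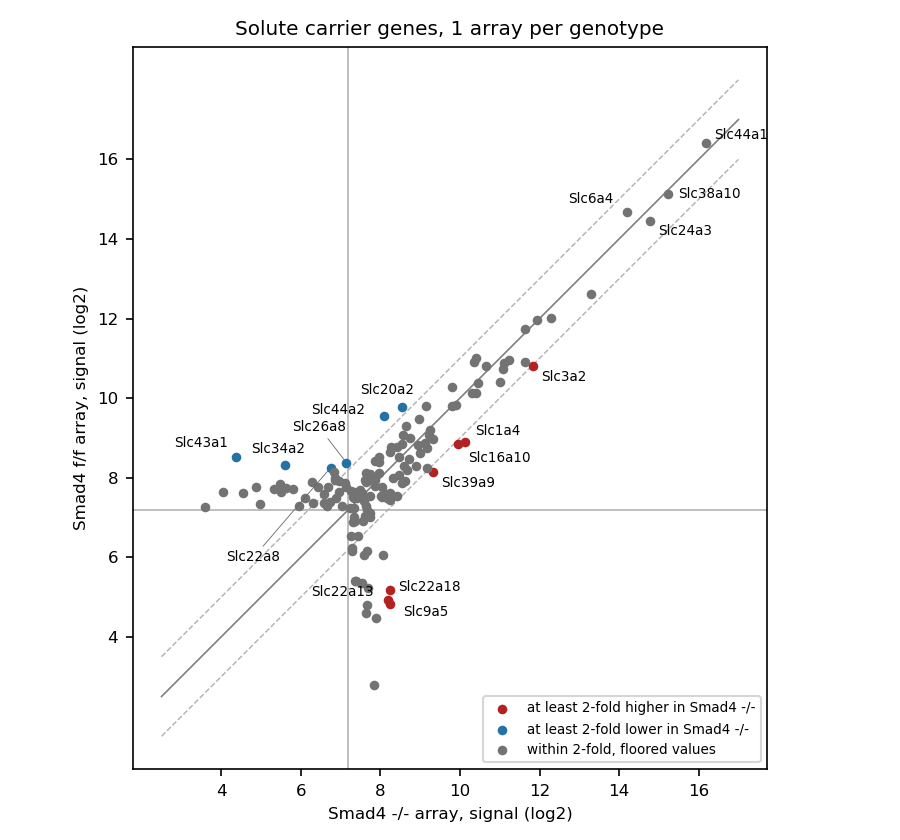
Log2 signal of each of the 146 carrier genes on the Smad4 -/- array (horizontal axis) and on the Smad4 f/f array (vertical axis), with the floor as grey lines, equality as a solid diagonal and 2-fold as dashed diagonals. Most genes above the floor on both arrays lie between the dashed lines, and Slc3a2, Slc1a4, Slc16a10 and Slc39a9 lie below them, Slc44a2 and Slc20a2 above them.

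Among amino acid and peptide carriers, a group set by family number, 37 of 63 were measured, 2 at least 2-fold higher in Smad4 -/- and 1 lower. The shares of all measured genes were 3.34% higher and 3.59% lower. Slc16a10, a member of another group by its family number, is described with the amino acid carriers. Slc3a2 encodes the heavy chain of 4F2, also called CD98, a glycoprotein that escorts several amino acid exchangers to the cell surface and binds integrin tails. It read 3629 in Smad4 -/- and 1788 in Smad4 f/f, 2.03-fold higher, on 1 probe set. Under quantile normalization it fell just short of 2-fold. Slc1a4, an exchanger of alanine, serine, cysteine and threonine, read 1117 in Smad4 -/- and 479 in Smad4 f/f, 2.33-fold higher. Its other probe sets gave log2 ratios of 1.02, a bound, and 0.05, and their mean over all 3 was 0.76, which is under 2-fold. Slc16a10, a carrier of aromatic amino acids that belongs by sequence to the monocarboxylate family, read 993 in Smad4 -/- and 462 in Smad4 f/f, 2.15-fold higher. Its second probe set had a log2 ratio of 0.62 and the mean of both was 0.86.

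The light chains that pair with a heavy chain were looked at next, a set chosen after the values were seen. Slc7a5, the light chain for large neutral amino acids, read 2071 in Smad4 -/- and 1362 in Smad4 f/f, a log2 ratio of 0.61. Slc7a7, an exchanger of cationic for neutral amino acids, read 340.4 in Smad4 -/- and 186 in Smad4 f/f, a log2 ratio of 0.87. Its second probe set gave 0.29, a bound. Slc7a6, which has the same kind of transport, and Slc7a10, a carrier of small neutral amino acids, reached the floor in Smad4 -/- only, at 175 and 201. The heavy chain gene Slc3a1 did so too, at 158 in Smad4 -/- and 119 in Smad4 f/f. Slc7a13 went the other way, with 55.5 in Smad4 -/- and 209 in Smad4 f/f. Of the 10 heavy and light chain genes, 7 were measured, 6 had a ratio above 0, and Slc7a8, Slc7a9 and Slc7a11 lay below the threshold on both arrays. The threshold set the direction of 4 of the 7, and 3 of the 6 reached the floor on both arrays. Of all 11389 measured genes, 5484 had a ratio above 0.

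**Figure D2:**
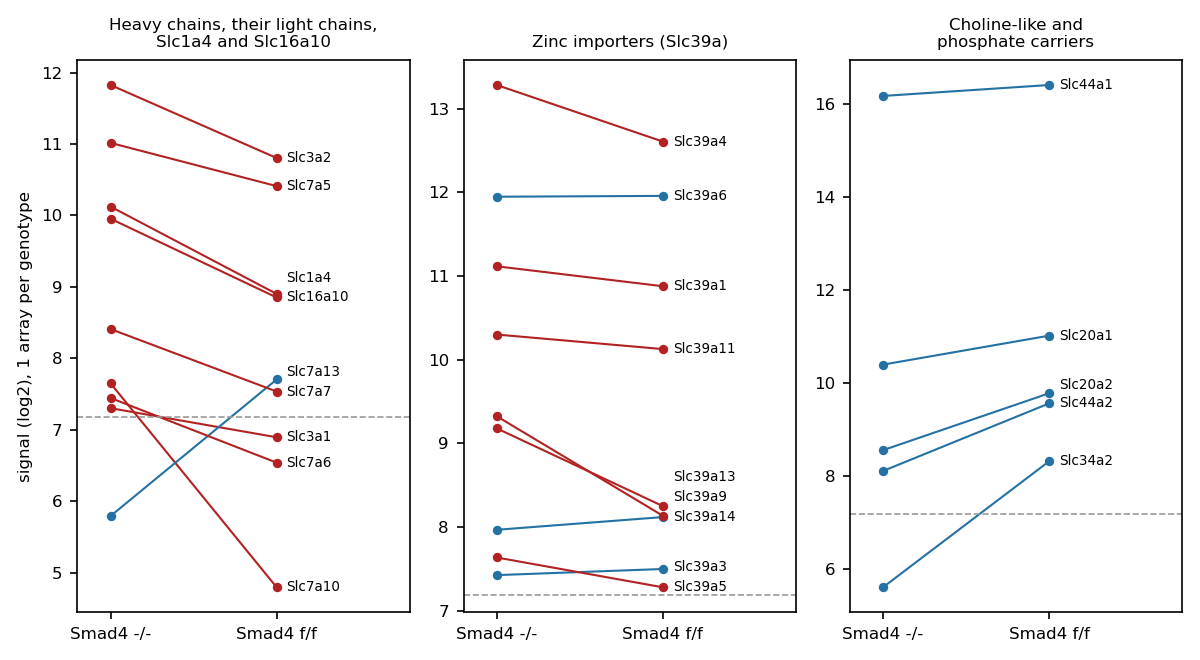
Log2 signal on the Smad4 -/- array (left point) and the Smad4 f/f array (right point) for heavy and light chains with Slc1a4 and Slc16a10, for the 9 measured zinc importers, and for choline-like and phosphate carriers; red lines are higher and blue lines lower in Smad4 -/-, the dashed line is the floor, and each panel has its own axis. Slc7a13 is the one line of the left panel that is lower in Smad4 -/-, and all 5 lines of the right panel are.

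The genes named next belong to the amino acid and peptide group, which by its family numbers also holds carriers of other substrates. They reached the floor on both arrays and were within 2-fold. Slc38a10, a member of the sodium-coupled neutral amino acid family, read 38100.3 in Smad4 -/- and 35803 in Smad4 f/f, and its 7 measured probe sets spread from -0.07 to 0.99 in log2 ratio. Slc6a4, the serotonin transporter through which platelets take up serotonin from plasma, read 18721 in Smad4 -/- and 26425 in Smad4 f/f, a log2 ratio of -0.50 on 1 probe set. A signal depends on the probes as well as on the transcript, so signals of different genes are not set against each other. Slc38a2, a sodium-coupled neutral amino acid carrier, read 2413 in Smad4 -/- and 1984 in Smad4 f/f, a log2 ratio of 0.28. Its other probe sets gave 0.31 and -0.42. Its relative Slc38a1 read 199 in Smad4 -/- and 277 in Smad4 f/f, a log2 ratio of -0.47. Slc7a1, a carrier of arginine and lysine, read 319 in Smad4 -/- and 256 in Smad4 f/f, with -0.42, a bound, by another probe set. Slc7a4, of the same branch, read 564 in Smad4 -/- and 894 in Smad4 f/f, a log2 ratio of -0.66. Slc6a6, the taurine transporter, read 5024 in Smad4 -/- and 4164 in Smad4 f/f, and Slc15a2, a peptide carrier, 3207 in Smad4 -/- and 3424 in Smad4 f/f.

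The lowest ratio of the amino acid group was that of Slc43a1, a carrier of large neutral amino acids. It read 20.8 in Smad4 -/- and 366 in Smad4 f/f, at least 2.52-fold lower, on 1 probe set. Its relative Slc43a3 read 398 in Smad4 -/- and 625 in Smad4 f/f, a log2 ratio of -0.65, while Slc43a2 read 476 in Smad4 -/- and 314 in Smad4 f/f, a log2 ratio of 0.60. The family thus went both ways. Over the 37 genes of the amino acid and peptide group, the median log2 ratio was 0.12, with 20 ratios above 0 and 17 below. The higher values of the chains named above were thus not shared by the whole group.

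Promoter sequences are shown for Slc3a2, Slc1a4, Slc16a10, Slc39a9 and Slc44a2, carriers past 2-fold with the floor reached on both arrays, since their ratios are measured and not bounds. The sixth such carrier, Slc20a2, is not shown. They are windows of 300 bases, from 250 before to 50 after the annotated start, from RefSeq on GRCm38.p6, in which 109 of the 146 genes were found. Capitals mark CAGAC or its reverse complement GTCTG, a core that SMAD proteins bind, and TGATGNAAN or its reverse complement, the form of the amino acid response element bound by ATF4 and C/EBP factors. The 2 motifs were chosen after the values were seen and do not overlap in these windows.
Slc3a2, chr19:8713848-8714147, minus strand: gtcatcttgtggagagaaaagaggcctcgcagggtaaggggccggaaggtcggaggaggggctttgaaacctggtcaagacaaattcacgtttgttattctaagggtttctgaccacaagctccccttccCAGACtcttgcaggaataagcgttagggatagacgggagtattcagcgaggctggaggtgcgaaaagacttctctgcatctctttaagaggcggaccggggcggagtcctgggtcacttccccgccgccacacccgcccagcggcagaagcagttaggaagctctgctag
Slc1a4, chr11:20332664-20332963, minus strand: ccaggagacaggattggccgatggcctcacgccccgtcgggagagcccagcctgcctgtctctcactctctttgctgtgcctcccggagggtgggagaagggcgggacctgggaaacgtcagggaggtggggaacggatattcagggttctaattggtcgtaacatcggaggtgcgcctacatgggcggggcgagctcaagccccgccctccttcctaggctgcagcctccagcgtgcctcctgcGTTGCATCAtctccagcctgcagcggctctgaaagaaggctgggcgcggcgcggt
Slc16a10, chr10:40142205-40142504, minus strand: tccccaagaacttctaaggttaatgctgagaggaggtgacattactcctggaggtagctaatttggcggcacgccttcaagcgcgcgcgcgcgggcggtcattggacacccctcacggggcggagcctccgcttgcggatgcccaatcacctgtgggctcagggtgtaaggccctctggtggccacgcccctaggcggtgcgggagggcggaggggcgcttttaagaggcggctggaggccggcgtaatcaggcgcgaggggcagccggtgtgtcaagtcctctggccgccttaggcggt
Slc39a9, chr12:80643965-80644264, plus strand: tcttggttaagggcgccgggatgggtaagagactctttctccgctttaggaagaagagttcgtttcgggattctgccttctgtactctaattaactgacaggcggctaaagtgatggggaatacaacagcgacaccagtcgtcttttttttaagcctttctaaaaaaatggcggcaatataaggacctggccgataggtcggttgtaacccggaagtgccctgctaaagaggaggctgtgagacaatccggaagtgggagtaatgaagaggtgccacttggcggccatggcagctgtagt
Slc44a2, chr9:21320469-21320768, plus strand: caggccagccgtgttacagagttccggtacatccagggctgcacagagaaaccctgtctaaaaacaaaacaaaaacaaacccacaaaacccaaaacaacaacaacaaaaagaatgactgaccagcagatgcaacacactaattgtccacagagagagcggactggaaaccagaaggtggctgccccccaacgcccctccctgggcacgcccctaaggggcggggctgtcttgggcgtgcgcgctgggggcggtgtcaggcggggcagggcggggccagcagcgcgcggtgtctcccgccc
The window of Slc3a2 held 1 match to CAGAC and that of Slc1a4 held 1 match to TGATGNAAN, on the reverse strand. Those of Slc16a10, Slc39a9 and Slc44a2, the first of 2 windows listed for that gene, held 0 of either. Among all 32851 promoter windows, 49.6% held CAGAC on either strand, and among the 145 windows of measured carriers 54.5% did. For TGATGNAAN the shares were 4.14% of carrier windows and 3.95% of all windows. A match is a run of letters and not a shown binding site.

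Metal carriers included the next gene past 2-fold. Slc39a9, a zinc importer of the Golgi and cell membrane, read 641 in Smad4 -/- and 281 in Smad4 f/f, 2.28-fold higher, on 1 probe set. Slc39a13, a zinc carrier of the Golgi, read 579 in Smad4 -/- and 304 in Smad4 f/f, a log2 ratio of 0.93. Slc39a4, the zinc importer known from the gut, read 9966 in Smad4 -/- and 6238 in Smad4 f/f, a log2 ratio of 0.68.

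These 3 genes belong to a family of zinc importers of which 9 of 14 genes were measured, all 9 on both arrays, so that the threshold did not fix their direction. The family was picked out after the values were seen. Of the 7945 measured genes that reached the floor on both arrays, 3923 had a ratio above 0. The zinc importers had 6 ratios above 0 and 3 below, with a median of 0.24, and the 3 below ran only from -0.15 to -0.01. Slc39a6, one of the 3, read 3950 in Smad4 -/- and 3977 in Smad4 f/f. Its second probe set had a log2 ratio of 0.79, a bound. Under median centring, which put the median of all genes at 0.06, against -0.02 as deposited, 8 of the 9 lay above 0, and under quantile normalization and loess correction 6 did.

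Zinc exporters, the Slc30a family, also picked out after the values were seen, had 6 of 10 genes measured and 4 ratios above 0. On both arrays were 3 of the 6, with 2 ratios above 0 and 1 below. The threshold set the direction of the rest, 2 that reached the floor in Smad4 -/- only and 1 in Smad4 f/f only. Slc30a1, which exports zinc across the plasma membrane, read 1364 in Smad4 -/- and 1124 in Smad4 f/f, with both probe sets above 0. Slc30a9 read 392 in Smad4 -/- and 242 in Smad4 f/f, and the vesicular zinc carrier Slc30a3 read 307 in Smad4 -/- and 438 in Smad4 f/f. The copper importer Slc31a1 reached the floor in Smad4 f/f only, with 117 in Smad4 -/- and 254 in Smad4 f/f, at least 1.75-fold lower. The magnesium carrier gene Slc41a3 read 1613 in Smad4 -/- and 1793 in Smad4 f/f. Its other probe sets gave log2 ratios of 0.82 and 0.50, the latter a bound. Over the 19 measured of 30 metal carriers, 1 gene was at least 2-fold higher and 0 were lower, and the median log2 ratio was 0.24. The shares of all measured genes were 3.34% higher and 3.59% lower.

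Among carriers of vitamins, choline, haem and fatty acids, 13 of 22 were measured. Slc44a2, a choline-like carrier that bears a neutrophil alloantigen in humans and binds von Willebrand factor, was the one gene of the group past 2-fold. It read 275 in Smad4 -/- and 754 in Smad4 f/f, 2.74-fold lower. Its other probe sets, with log2 ratios of -0.76 and -0.64, went the same way, and the mean of the 3 was -0.95, short of 2-fold. The last of these, which ends in _x_at and can cross-hybridise, read 1422 in Smad4 -/- and 2217 in Smad4 f/f.

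Slc44a1, the choline transporter of the same family, read 74444 in Smad4 -/- and 87657 in Smad4 f/f, a log2 ratio of -0.24, and its second probe set went the other way at 0.27. Slc27a2, which takes up and activates long-chain fatty acids, read 3181 in Smad4 -/- and 1927 in Smad4 f/f, a log2 ratio of 0.72 on 1 probe set. The haem carrier gene Slc48a1 was close on both arrays, with 960.03 in Smad4 -/- and 907 in Smad4 f/f. The vitamin C carrier Slc23a2 read 281 in Smad4 -/- and 194 in Smad4 f/f, a log2 ratio of 0.53. Its second probe set gave -0.81, a bound. The folate carrier Slc19a1 had a log2 ratio of 0.35 by 1 probe set and -0.10 by the other. The group had 0 genes at least 2-fold higher, 1 lower, and a median log2 ratio of -0.12. The shares of all measured genes were 3.34% higher and 3.59% lower.

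Phosphate carriers were lower in Smad4 -/- in each of the 3 genes measured of 5. Slc20a2, a sodium-phosphate symporter of most cells, read 375 in Smad4 -/- and 877 in Smad4 f/f, 2.34-fold lower, on 1 probe set. Its partner in the family, Slc20a1, read 1346 in Smad4 -/- and 2074 in Smad4 f/f, a log2 ratio of -0.62. A weak second probe set of Slc20a1 gave -0.08, a bound. Slc34a2, a sodium-phosphate carrier known from lung and gut, read 48.4 in Smad4 -/- and 318 in Smad4 f/f, at least 2.19-fold lower. Its direction was set by the threshold, and the set of phosphate carriers was put together after the values were seen.

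The carriers of calcium, sodium, protons and anions went both ways. Slc24a3, an exchanger that trades sodium for calcium and potassium, read 28157 in Smad4 -/- and 22461 in Smad4 f/f, a log2 ratio of 0.33. The sodium-calcium exchanger Slc8a1 read 215 in Smad4 -/- and 185 in Smad4 f/f, and Slc8a3 reached the floor in Smad4 -/- only, at 237 against 22.1 in Smad4 f/f, at least 1.63-fold higher. All 3 calcium exchangers had ratios above 0, the direction of Slc8a3 being set by the threshold, and with the floor at the 50th percentile its log2 ratio was 1.19, past 2-fold. Slc9a5, a sodium-proton exchanger known from brain, read 304 in Smad4 -/- and 28.4 in Smad4 f/f, at least 2.09-fold higher. Slc26a8, an anion carrier known from testis, read 142 in Smad4 -/- and 332 in Smad4 f/f, at least 2.29-fold lower. Slc12a2, the sodium-potassium-chloride symporter, lay close to the floor with 163 in Smad4 -/- and 178 in Smad4 f/f. Slc12a7, a potassium-chloride symporter, read 264 in Smad4 -/- and 184 in Smad4 f/f, and Slc12a9 reached the floor in Smad4 f/f only, with 125 in Smad4 -/- and 242 in Smad4 f/f. The organelle sodium-proton exchangers also split. Slc9a7 read 582 in Smad4 -/- and 432 in Smad4 f/f, and Slc9a9 read 213 in Smad4 -/- and 274 in Smad4 f/f. Of 45 carriers of inorganic ions 23 were measured, 1 at least 2-fold higher and 3 lower, where 3.34% and 3.59% of all measured genes were. The median log2 ratio of the 23 was 0.09. That median was -0.01 when each gene took the mean of its probe sets.

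Carriers of organic ions and monocarboxylates reached 2-fold mostly where 1 array was below the floor. Slc22a13, which carries urate and nicotinate, read 303 in Smad4 -/- and 36.3 in Smad4 f/f, at least 2.08-fold higher. Slc22a18, an imprinted organic cation carrier gene, read 293 in Smad4 -/- and 30.5 in Smad4 f/f, at least 2.02-fold higher. Slc22a8, an organic anion carrier of the kidney, read 107 in Smad4 -/- and 304 in Smad4 f/f, at least 2.10-fold lower, with its second probe set at -0.68, also a bound. These 3 genes are known mainly from other tissues and their signals were near the floor. Slc16a12, which carries creatine, read 899 in Smad4 -/- and 885 in Smad4 f/f. The organic ion carrier genes Slc22a17 and Slc22a23 differed in direction, with 407 in Smad4 -/- and 290.3 in Smad4 f/f for Slc22a17, and 499 in Smad4 -/- and 713 in Smad4 f/f for Slc22a23. In this group 21 of 44 genes were measured, with 3 at least 2-fold higher, 1 lower and a median log2 ratio of 0.02.

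**Figure D3:**
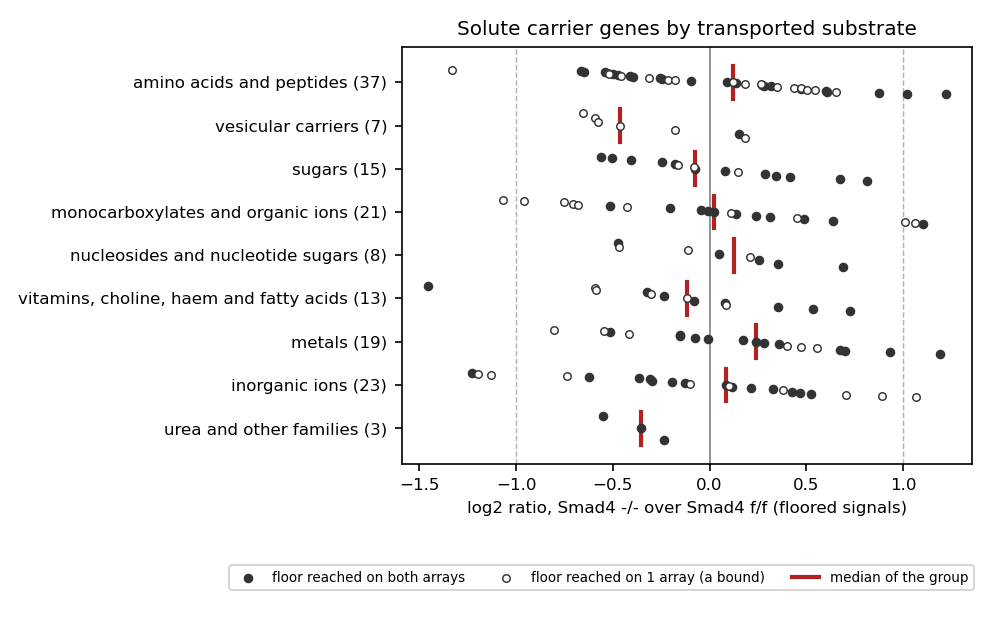
Log2 ratio, Smad4 -/- over Smad4 f/f on floored signals, of each of the 146 carrier genes in 9 groups set by family number, with the number of genes in brackets. Filled points reached the floor on both arrays, open points on 1 array and are bounds, the red bar is the group's median, and dashed lines mark 2-fold; the medians run from -0.46 for vesicular carriers to 0.24 for metal carriers, and no group lies wholly on either side of 0 but that of urea and other families.

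None of the sugar carriers passed 2-fold. Of 29 genes 15 were measured, with a median log2 ratio of -0.07, which turned to 0.02 under median centring. Slc2a9, which carries urate and hexoses, read 2168 in Smad4 -/- and 1709 in Smad4 f/f, with log2 ratios of 0.34 and 0.59 by its 2 probe sets. Slc45a4, of a family of proton-coupled sugar carriers, read 1411 in Smad4 -/- and 1334 in Smad4 f/f. Its other probe sets disagreed, at -0.71 and 0.96, both bounds. Slc2a4, the insulin-responsive glucose carrier, read 154 in Smad4 -/- and 204 in Smad4 f/f, and Slc50a1 read 378 in Smad4 -/- and 538 in Smad4 f/f. The highest ratio of the group was that of Slc5a6, the sodium-dependent vitamin carrier for biotin and pantothenate, with 305 in Smad4 -/- and 174 in Smad4 f/f, a log2 ratio of 0.81.

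Nor did any nucleoside or nucleotide sugar carrier by the probe set that stands for it, with 8 of 11 measured and a median log2 ratio of 0.13. Slc35a3, which brings UDP-N-acetylglucosamine into the Golgi, read 891 in Smad4 -/- and 1239 in Smad4 f/f, and its 3 probe sets had log2 ratios between -0.48 and -0.29. Slc35a2, the UDP-galactose carrier, read 376 in Smad4 -/- and 233 in Smad4 f/f, a log2 ratio of 0.69. One of its 5 probe sets gave at most -1.11, and the other 4 lay between 0.52 and 0.93. Slc35a4 and Slc35a5, of the same family, had log2 ratios of 0.35 and 0.26. Slc29a4, a monoamine and nucleoside carrier, read 608 in Smad4 -/- and 588 in Smad4 f/f, on 1 probe set ending in _x_at.

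The group called vesicular carriers was set by family number, so a member need not fill vesicles. It had 7 of 10 genes measured, 0 past 2-fold and a median log2 ratio of -0.46. That median rests on the threshold, since 5 of the 7 reached the floor in Smad4 f/f only and 1 in Smad4 -/- only. Slc17a9, the vesicular nucleotide carrier that loads ATP into granules, was one of the 5, with 103 in Smad4 -/- and 219 in Smad4 f/f, at least 1.51-fold lower. Slc17a7, a vesicular glutamate carrier, read 142 in Smad4 -/- and 217 in Smad4 f/f. Slc17a3, the one gene on both arrays, read 191 in Smad4 -/- and 172 in Smad4 f/f. The 3 genes of urea and other families were slightly lower, Slc14a1 with 339 in Smad4 -/- and 434 in Smad4 f/f, Slc14a2 with 431 in Smad4 -/- and 507 in Smad4 f/f, and Slc66a2 with 1316 in Smad4 -/- and 1925 in Smad4 f/f. The Slc66a2 value is from a probe set ending in _s_at, and the other probe set of the gene had a log2 ratio of -0.01.

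Grouped by where the protein sits, by lists written after the values were seen, few organelle carriers passed 2-fold. All 11 listed carriers of lysosomes and endosomes were measured, but only 3 of them on both arrays, and 0 passed 2-fold. Slc38a9, the lysosomal arginine sensor of the mTORC1 pathway, read 212 in Smad4 -/- and 128 in Smad4 f/f, and the histidine and peptide carrier Slc15a4 read 228 in Smad4 -/- and 6.89 in Smad4 f/f, at least 1.57-fold higher. The lysosomal sialic acid carrier Slc17a5 went the other way, with 44.8 in Smad4 -/- and 229 in Smad4 f/f, at least 1.57-fold lower. Of 15 listed carriers of the Golgi and endoplasmic reticulum, 12 were measured, 8 had a ratio above 0, 1 was at least 2-fold higher, and the median log2 ratio was 0.37. Of all 11389 measured genes, 5484 had a ratio above 0. Those of the 12 on both arrays had 6 ratios above 0 and 2 below. The threshold set the direction of the rest, 2 that reached the floor in Smad4 -/- only and 2 in Smad4 f/f only.

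Of 10 carriers known from platelets, 7 were measured. Slc44a2 was lower past 2-fold, and Slc6a4, Slc12a2, Slc24a3 and Slc8a1, on both arrays, were within it, with values given above. Slc17a9 and Slc8a3 have bounds only, at least 1.51-fold lower and at least 1.63-fold higher, and with the floor at the 50th percentile both passed 2-fold, at log2 ratios of -1.07 and 1.19. The dense granule gene Slc35d3 does not match the symbol form and read 59.5 in Smad4 -/- and 53.0 in Smad4 f/f, below the floor on both arrays, as did the glucose-6-phosphate carrier Slc37a4. Of 11 carriers known from red cells and their precursors, 6 were measured, with 0 at least 2-fold higher and 1 lower, Slc43a1. The glutamine carrier Slc1a5 reached 185 in Smad4 -/- and 40.9 in Smad4 f/f, and the glycine carrier Slc6a9 reached 196 in Smad4 -/- and 131 in Smad4 f/f. The urea carrier Slc14a1 and the nucleoside carrier Slc29a1, both of red cells, had ratios below 0. Of the 6, 2 reached the floor on both arrays, and the threshold set the direction of Slc43a1, Slc29a1, Slc1a5 and Slc6a9. The rule had also set aside Slc4a1 and Slc25a37, known from red cells or their precursors and past 2-fold higher in Smad4 -/-, with values given below. These values stood beside the higher summed signal of red cell markers in Smad4 -/- given above.

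Probe sets of the same gene give the one technical check that these arrays hold. Of the 146 genes, 100 had a single measured probe set and 46 had several. In 23 of those 46 all probe sets went the same way and in 23 they did not. Within a gene, log2 ratios had a pooled SD of 0.47 over these 46 genes and 0.48 over 4259 genes of the whole array, and this SD holds no spread between mice or arrays. Of the 13 genes past 2-fold, Slc1a4, Slc16a10, Slc44a2 and Slc22a8 had several probe sets, which agreed in direction in each, and the mean of the probe sets was short of 2-fold in all 4. A further gene, Slc27a1, was at -0.08 by the probe set that stands for it and at -1.10 by the other.

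**Figure D4:**
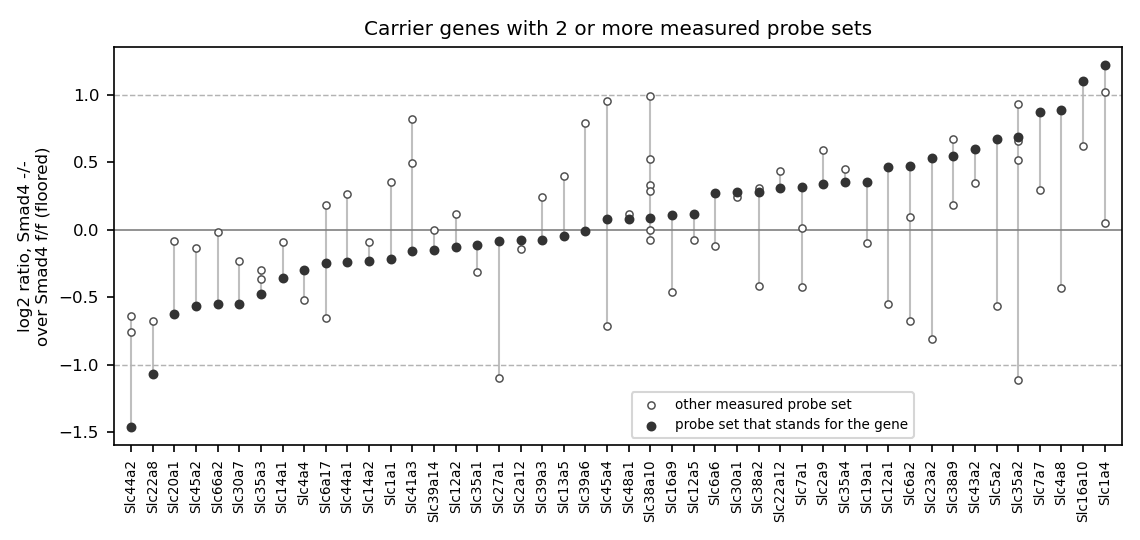
Log2 ratio, Smad4 -/- over Smad4 f/f on floored signals, of every measured probe set of the 46 carrier genes with 2 or more, ordered by the probe set that stands for the gene (filled point), with other probe sets as open points and dashed lines at 2-fold. The spread within a gene varies, from close pairs such as Slc30a1, at 0.24 and 0.28, to Slc35a2, the widest, which runs from -1.11 to 0.93.

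The signal threshold of the rule cuts through a dense range of weak signals. Just inside it lay probe sets of Slc39a14, with 145.2 in Smad4 -/- and 52.2 in Smad4 f/f, of Slc7a1, with 147 in Smad4 -/- and 98.2 in Smad4 f/f, and of Slc13a4, with 151 in Smad4 -/- and 152 in Smad4 f/f. Just outside lay probe sets of Slc16a5, with 19.9 in Smad4 -/- and 145 in Smad4 f/f, of Slc6a8, with 145 in Smad4 -/- and 139 in Smad4 f/f, and of Slc22a5, with 110.5 in Smad4 -/- and 142 in Smad4 f/f.

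Transport genes outside the symbol rule are given by their counts past 2-fold, which 6.93% of all measured genes reached. Of 24 measured ABC transporters, which use ATP, 1 was at least 2-fold higher and 1 lower: Abcb9, a lysosomal peptide carrier, was at least 2.29-fold higher, and Abcc4, which exports cyclic nucleotides and nucleotides, was 2.22-fold lower. Of 13 measured Mfsd genes, which share a fold with many carriers, Mfsd13a was at least 3.05-fold higher and Mfsd1 at least 2.95-fold lower. None of 9 P-type ATPases and 4 Slco organic anion carriers passed 2-fold. Among 10 measured partners and regulators of carriers, 0 were higher past 2-fold and Oxsr1, a kinase that switches on sodium-potassium-chloride symport, was lower, with 157 in Smad4 -/- and 363 in Smad4 f/f, 2.31-fold. Of the genes set aside by the rule, 4 of 34 measured Slc25a genes passed 2-fold. Slc25a37, the mitochondrial iron carrier of red cell precursors, was 3.90-fold higher, Slc25a11 2.03-fold higher, Slc25a22 at least 2.65-fold higher and Slc25a47 at least 2.56-fold lower. Of the 7 others, Slc4a1, the anion exchanger of red cells, was 2.36-fold higher and 6 were within 2-fold.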

How the data were processed

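Platelet RNA was labelled with biotin in a 3' in vitro transcription kit, per the labels' protocols. The deposited table holds a log2 signal for each probe set on each array, made with MAS5 per the submitters' processing notes, which give neither its version nor its settings. Back on the linear scale, the trimmed mean (2% off each end) is 500.01 on both arrays. Of 45101 probe sets, 64 are controls, and of the others 34945 have 1 gene symbol, 932 several and 9160 none in the platform annotation, which can be old. Only those with 1 symbol were used. All 146 carrier symbols matched a RefSeq gene table of GRCm38.p6 by Entrez ID and 0 changed.

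The measured probe set with the highest mean log2 value stood for its gene, and _x_at probe sets did so only for lack of another. Each ratio sets Smad4 -/- over Smad4 f/f after signals were raised to the floor, and 2-fold is a rule of size, not a test. With 1 array per genotype there are no replicates, and precision is limited by the number of arrays. The members, the lists, the size rule and the alternatives were chosen with earlier results of these data known. Named were all members past 2-fold, the 2 with the highest signal in each group, members of the platelet and red cell lists, members with probe sets past 2-fold apart in opposite directions or over a log2 range above 2, and probe sets next to the threshold. Other genes were named after their values were seen. The steps were tested on simulated data with planted folds (Python 3.11.15, pandas 2.3.3, statsmodels 0.14.6 for loess). The planted folds were larger than 2-fold and lay in genes of strong signal, so calls near 2-fold or near the floor were not tried.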

Additional observations from a re-analysis of the deposited data

How the results depend on the processing

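No paired analysis was possible because there is 1 array per genotype, and no replicate could be left out. The counts of carriers at least 2-fold higher and lower in Smad4 -/-, 7 and 6, depended on the floor and on the size rule. With the floor at the 50th percentile 184 carriers were measured, of which 17 were lower and 10 higher. Of all 13383 genes measured at that floor, 781 were lower and 676 higher. At the 75th percentile, and likewise when both arrays had to reach the floor, 4 were higher and 2 lower, since the 7 carriers with a bound then drop out of the count. Those counts are of 77 carriers at the 75th percentile, where 175 of 7376 genes were higher and 146 lower. When both arrays had to reach the floor they are of 88 carriers, with 237 of 8041 genes higher and 227 lower. With no floor on the ratio 20 of the 146 carriers were higher and 26 lower, where 1219 of all 11389 genes were higher and 1417 lower. At 1.5-fold 21 were higher and 19 lower, and at 3-fold 0 and 0. Median centring gave 8 higher and 6 lower, quantile normalization 6 and 6, and loess correction 7 and 6. Over all measured genes quantile normalization gave 427 higher and 390 lower, and loess correction 423 and 382. The mean of probe sets gave 5 and 4, without Slc1a4, Slc16a10, Slc44a2 and Slc22a8, and 287 and 298 over all measured genes. Dropping every _s_at and _x_at probe set, asking that all probe sets of a gene agree, and choosing the probe set over all of a gene, measured or not, which was added after seeing the data, each gave 7 and 6. Only 4 of the 13 carriers past 2-fold had several measured probe sets, so the demand for agreement could remove only those 4. The median log2 ratio of the carriers lay between -0.01 and 0.08 under all of these. Median centring, quantile normalization or loess correction turned the sign of 7 carriers, all within 2-fold. Weak signals near the floor limit the 58 carriers measured on 1 array.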

Other observations

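Carriers whose symbols have another letter, such as the Slc35b to Slc35g genes, fall outside the symbol form used above. Of 31 such genes on the arrays 15 were measured, with 0 at least 2-fold higher in Smad4 -/- and 2 lower. Slc35e1, an orphan relative of the nucleotide sugar carriers, read 284 in Smad4 -/- and 847 in Smad4 f/f, 2.99-fold lower, but its second probe set had a log2 ratio of 0.14. Slc35d2, a nucleotide sugar carrier of the Golgi, read 644 in Smad4 -/- and 1307 in Smad4 f/f, 2.03-fold lower, on 1 probe set. Slc35b1, a carrier of the endoplasmic reticulum, went the other way within 2-fold, with 4377 in Smad4 -/- and 2898 in Smad4 f/f. These genes were named after their values were seen.

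The 145 promoter windows of the measured carriers had a median GC content of 61.3%, against 52.7% for all 32851 windows. The carrier windows cover 109 of the 146 genes, which were chosen by signal, and the difference was not tested.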
